A study of Mus musculus with 27 samples.

Results

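The genes described here are 9 interferon-stimulated genes of the mouse: Isg15, Usp18, Ifit1, Ifit3 and Gbp2, and the immunity-related GTPase genes Igtp, Irgm1, Iigp1 and Ifi47. They were chosen by name with earlier results of these data known, so their counts beside all probe sets are no independent test. Every probe set that the array annotation gives to one of them was taken. This made 10 probe sets of the 12488 on the array, with 2 for Iigp1 and 1 for each other gene. The levels come from livers of 27 mice, 1 mouse per Affymetrix array, in groups named Dex, Veh and Con with 9 mice each. The labels do not spell out these group names and give no sex, strain, age, dose, route or time, so the names are used as written. No genotype or other agent is given for any group. The labels do not say whether the mice of a group were treated or killed on separate days. A p-value here sets a group difference against the spread between these single livers. It cannot separate that difference from handling shared by a group.

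Interferons are signalling proteins released during infection and inflammation. Type I interferons act through the receptor made of IFNAR1 and IFNAR2, and interferon gamma acts through IFNGR1 and IFNGR2. Both receptors signal through JAK kinases to transcription factors in the nucleus. The type I route ends mainly at a promoter element called ISRE, and the interferon gamma route at an element called GAS and, through IRF1, also at ISRE-like sequences. In the liver, both hepatocytes and the resident macrophages, called Kupffer cells, respond to interferon. Isg15, Usp18, Ifit1 and Ifit3 are textbook targets of type I interferon, while the immunity-related GTPases and the guanylate-binding protein Gbp2 are known for strong induction by interferon gamma. The GTPases act on the membranes that surround intracellular parasites and bacteria.

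The 250 bases before the transcript start were searched for a core ISRE pattern, GAAANNGAAA on either strand (TTTCNNTTTC when read on the gene's own strand), and a core GAS pattern, TTCNNNGAA, which reads the same on both strands. RefSeq promoter sequences on the build GRCm38.p6 matched 7 of the 9 genes, all but Iigp1 and Usp18. The ISRE pattern was present in 6 of these 7 promoters (85.7%), against 936 of all 27025 genes in the promoter table (3.46%). The GAS pattern was present in 1 of 7 (14.3%), the promoter of Igtp, against 8.13% of all genes. Neither pattern was found in the window of Ifi47. Because the ISRE pattern lay in 6 of these 7 promoters, the stretches that hold it are shown. They lie at chr4:156200850-156200921 on the minus strand for Isg15, chr19:34640760-34640838 on the plus strand for Ifit1, chr19:34583348-34583441 on the plus strand for Ifit3, chr11:58199486-58199555 on the plus strand for Igtp, chr11:48871421-48871475 on the minus strand for Irgm1 and chr3:142620579-142620638 on the plus strand for Gbp2. Each is written 5′ to 3′ on the gene's strand, with the matched bases in capitals.
Isg15: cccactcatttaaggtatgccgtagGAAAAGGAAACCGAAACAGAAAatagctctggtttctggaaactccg
Ifit1: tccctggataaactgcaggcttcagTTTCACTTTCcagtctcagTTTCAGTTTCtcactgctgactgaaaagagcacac
Ifit3: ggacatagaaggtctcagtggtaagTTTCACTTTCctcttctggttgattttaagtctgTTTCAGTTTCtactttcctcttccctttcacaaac
Igtp: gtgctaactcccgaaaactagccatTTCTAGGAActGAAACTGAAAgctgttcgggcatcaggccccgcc
Irgm1: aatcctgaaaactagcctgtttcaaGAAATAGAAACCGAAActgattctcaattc
Gbp2: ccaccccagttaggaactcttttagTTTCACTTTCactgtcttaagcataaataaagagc

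Isg15 held 3 overlapping ISRE matches, spanning bases 78 to 57 before the start, and Irgm1 held 2 overlapping ones within bases 30 to 15. Ifit1 had 2 separate matches, at bases 104 to 95 and 85 to 76, and Ifit3 had 2, at bases 156 to 147 and 122 to 113. In Igtp the GAS match at bases 45 to 37 stood just before the ISRE match at bases 34 to 25, with no overlap between them. Gbp2 had 1 match, at bases 59 to 50. These matches describe letters in a window and do not show that a factor was bound in these livers. Among other immunity GTPases, 7 of 8 genes with a promoter in the table held the ISRE pattern and 5 of 8 the GAS pattern.

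**Figure D1:**
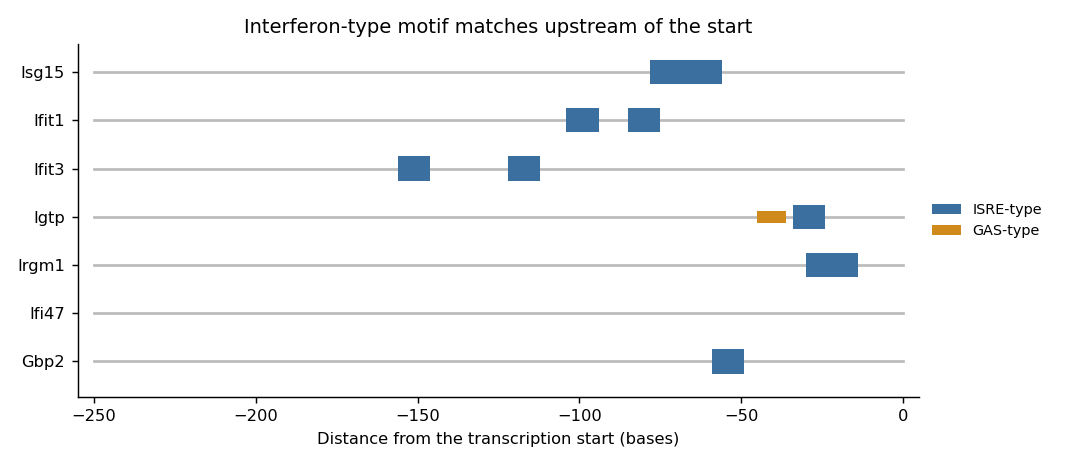
Positions of the ISRE and GAS patterns in the promoters of the 7 matched genes, with distance from the transcript start in bases on the horizontal axis and 1 gene per row. The ISRE matches of Igtp, Irgm1 and Gbp2 lie within 59 bases of the start and those of Ifit3 farthest away, at up to 156 bases, while the row of Ifi47 is empty.

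The deposited values are linear intensities, already scaled by the authors so that each array's trimmed mean was 100.09 to 100.15. A probe set was tested when it lay above the median of its own array, which was 17.6 to 33.3, in at least 9 of the 27 arrays. Of the 10 member probe sets, 6 passed, for Isg15, Igtp, Irgm1, Iigp1 (both) and Ifi47. Those of Usp18, Ifit1, Ifit3 and Gbp2 did not, and are given by their levels with no test. The livers carried hepatocyte RNA in every group, with a median albumin (Alb) intensity of 26026 in Dex, 21262 in Veh and 16814 in Con livers. Alb rose by 0.61 on the log2 scale in Dex against Con (limma adjusted p = 0.0276). Of 9 tested hepatocyte markers, 8 had a higher mean in Dex than in Con, and 1 a lower mean. Other orders of the medians were seen, with 227 in Dex, 127.7 in Veh and 283.2 in Con for Hnf4a, and 1446, 1894 and 2101 for Fgb. Some mice stood apart from their group. Veh 2 and Veh 7 were high for the interferon genes, as described below. In Dex 1, Dex 2 and Dex 3 the summed intensity of 14 glucocorticoid-induced genes was 55411 to 101160, while no other Dex liver exceeded 27673, the Veh livers lay between 8701 and 23689 and the Con livers between 7590 and 21050. RNA quality differed too. The 3′ over 5′ log2 ratio of the beta-actin controls, which grows with RNA degradation, was 0.886 ± 0.169 in Dex and 1.27 ± 0.318 in Veh livers (SD, n = 9 each, two-sided exact permutation test, adjusted p = 0.00913), and 0.947 ± 0.243 in Con livers. Its part in the results between Dex and Veh was not tested beyond the fit with this ratio as a covariate that is given with them.

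Isg15 codes for a ubiquitin-like protein that is attached to other proteins after interferon exposure. Its intensity had a lowest value of 9.1, a median of 35.0 and a highest value of 80.7 in Dex livers, against 70.6, 88.4 and 387 in Veh livers and 32.9, 73.1 and 104.0 in Con livers. All 9 Dex livers were below the Veh median and 8 of 9 were below the lowest Veh liver, with Dex 8 the exception. The highest livers of all 27 were Veh 2 with 387 and Veh 7 with 301, while the third, Veh 4, had 122. The Dex and Con ranges overlapped, with 8 of 9 Dex livers below the Con median.

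The machinery that attaches and removes ISG15 was measured in part. Ube2l6, the enzyme that carries ISG15 to its targets, had a median of 49.3 in Dex, 83.3 in Veh and 102.8 in Con livers, and fell by 1.01 on the log2 scale in Dex against Con (adjusted p = 0.00945). Uba7, which activates ISG15, had medians of 59.2 in Dex, 64.3 in Veh and 57.7 in Con livers, and its change in Dex against Con was -0.19 (adjusted p = 0.608). Trim25, a ligase that can attach ISG15, fell by 0.75 on the log2 scale in Dex against Con (adjusted p = 0.0138). In that comparison 13.2% of all tested probe sets were called lower. Against Veh none of these genes passed. The changes there were -0.86 for Ube2l6 (limma adjusted p = 0.103), -0.31 for Uba7 (0.529) and -0.50 for Trim25 (0.234).

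Usp18 codes for the protease that removes ISG15 and also dampens signalling from the type I receptor. Its intensity was low in most livers, with a lowest value of 2.8, a median of 9.0 and a highest value of 44.3 in Dex, against 4.1, 10.5 and 67.6 in Veh and 2.1, 8.5 and 25.3 in Con livers. In Veh the high livers were Veh 7 with 67.6 and Veh 2 with 46.6, and no other Veh liver exceeded 15.8. In Dex the high livers were Dex 1 with 44.3, Dex 3 with 27.7 and Dex 2 with 27.3, while no other Dex liver exceeded 10. These are the same 3 Dex livers that were high for glucocorticoid-induced genes, and at these low intensities the Usp18 values had no test.

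Ifit1 and Ifit3 code for proteins with tetratricopeptide repeats; IFIT1 binds viral RNA that lacks the host's cap modification, and IFIT3 partners with it. The mouse genome also holds Ifit3b, a near-identical copy of Ifit3, and the array annotation does not say whether its transcript is measured too. Ifit1 had a lowest value of 1.2, a median of 6.4 and a highest value of 29.7 in Dex, against 10.3, 12.4 and 123 in Veh and 1.6, 16 and 28.3 in Con livers. Veh 2 was far above the rest with 123, Veh 7 had 33.0, and no other Veh liver exceeded 15.0. For Ifit3 the values were 2.6, 11.2 and 31.0 in Dex, 2.3, 12.2 and 83.5 in Veh and 2.6, 10.6 and 23.1 in Con livers. Again Veh 2 with 83.5 and Veh 7 with 57.4 were the highest of 27, and the medians of the 3 groups lay close together.

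Igtp, also called Irgm3, codes for a GTPase of the regulatory branch of the immunity-related GTPases, which controls the effector branch. Its lowest, median and highest intensities were 24.7, 41.3 and 94.2 in Dex, against 62.7, 130.4 and 3209.7 in Veh and 77.3, 97.8 and 203 in Con livers. All 9 Dex livers lay below the Veh median and 6 lay below the lowest Veh liver, and all 9 lay below the Con median with 7 below the lowest Con liver. Veh 7 had 3209.7 and Veh 2 had 756, while the third highest Veh liver had 187. The spread of Igtp on the log2 scale was 0.678 in Dex, 1.80 in Veh and 0.435 in Con livers (SD, n = 9 each), and only 0.31% of all tested probe sets had a larger SD in Veh.

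Irgm1, another regulatory GTPase, is needed in mice for resistance to intracellular bacteria and for the survival of blood stem cells under interferon gamma. Its values were 4.3, 24.0 and 37.3 in Dex, against 12.7, 24.2 and 123 in Veh and 27.3, 38.7 and 58.7 in Con livers. The medians of Dex and Veh were alike, and both were below that of Con. Veh 7 with 123 and Veh 2 with 69.9 were again the highest of 27, and Dex 4 with 4.3 was the lowest.

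Iigp1, also called Irga6, is an effector GTPase that loads onto the vacuole of the parasite Toxoplasma and helps to break it. It was the only member with 2 probe sets. For 96764_at the lowest, median and highest values were 355, 799.6 and 1324 in Dex, against 875, 1582 and 13693 in Veh and 759.7, 1053 and 1678 in Con livers. For 103963_f_at, whose suffix marks a probe set that can match several members of a sequence family, they were 191, 272 and 599 in Dex, against 361, 458 and 7341 in Veh and 389.8, 485 and 763 in Con livers. Both probe sets put Veh 7 first and Veh 2 second among 27 mice. Below the lowest Veh liver lay 8 of 9 Dex livers on the first probe set and 7 of 9 on the second.

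Ifi47, also called Irgd, is another effector-type member of this GTPase family. Its values were 3.6, 19.2 and 68.8 in Dex, against 24.2, 32.4 and 281.5 in Veh and 32.5, 45.2 and 80.0 in Con livers. Veh 7 was highest with 281.5, the second was Veh 9 with 96.8, and Veh 2 had 77.0. Below the lowest Con liver lay 7 of the 9 Dex livers and 5 of the 9 Veh livers.

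Gbp2 codes for a guanylate-binding protein, a larger GTPase that coats intracellular pathogens after interferon gamma. Its values were 2.3, 5.5 and 27.4 in Dex, against 7.8, 17.8 and 561 in Veh and 5.9, 17.2 and 34.3 in Con livers. The medians of Veh and Con were alike, and that of Dex was lower. Veh 7 with 561 and Veh 2 with 87.6 were the highest, and no other Veh liver exceeded 34.7.

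**Figure D2:**
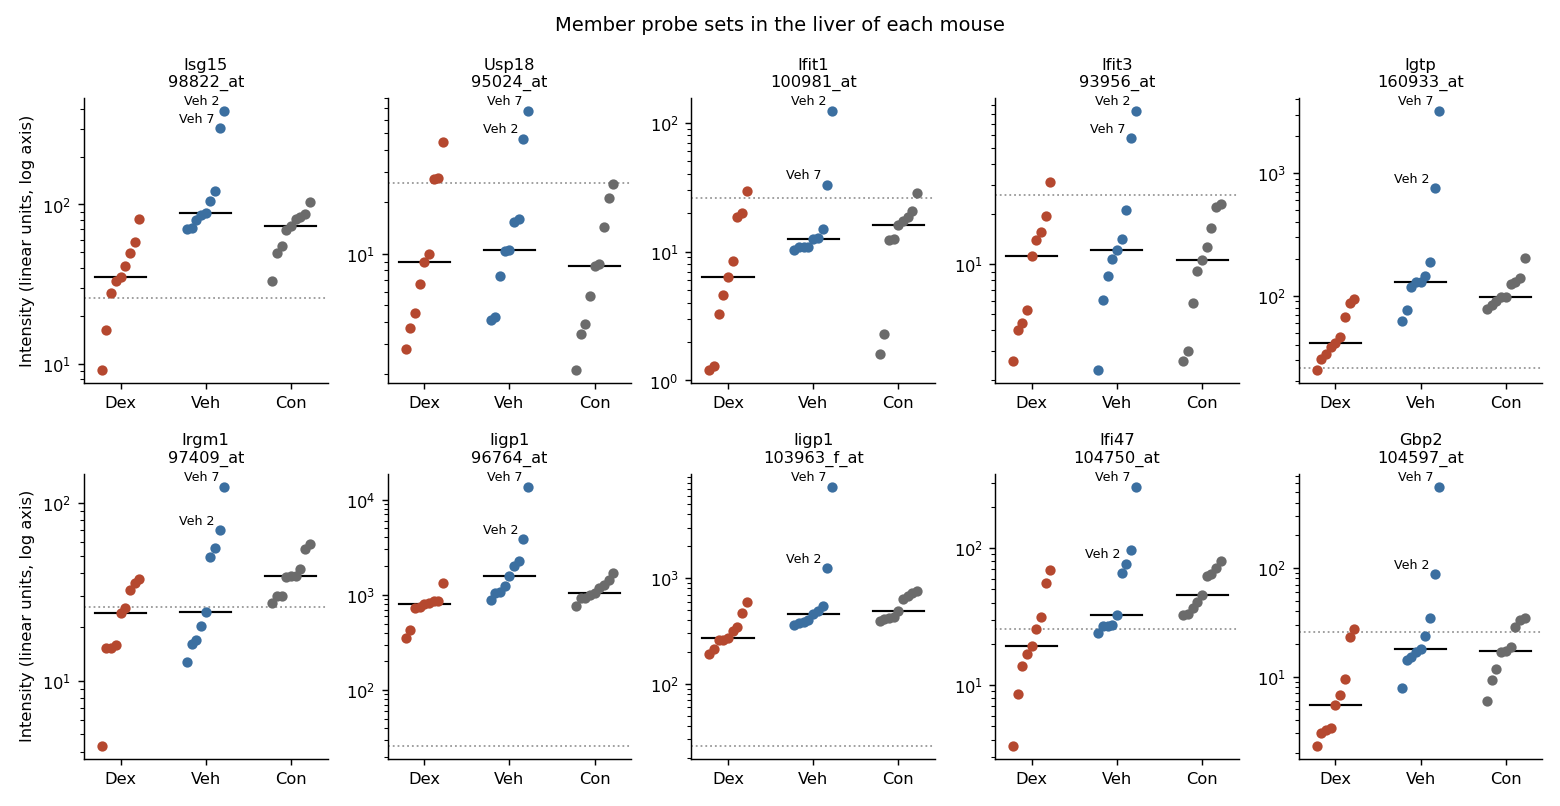
Intensity of each of the 10 member probe sets in every mouse on a log axis, with Dex, Veh and Con from left to right, a bar at the group median, and a dotted line at the median over the arrays of their median intensity. Veh 2 and Veh 7 stand above the other Veh livers in the panels, except that Veh 9 lies above Veh 2 for Ifi47, and no pair of groups is free of overlap.

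The comparison of Dex with Veh asked how Dex livers differed from those of the Veh mice. All 10 member probe sets had a lower mean in Dex, as did 53.4% of all tested probe sets. Of the 6 tested, 2 fell with an adjusted p under 0.05, Isg15 and Igtp, where 0.221% of all 6784 tested probe sets were called lower. Isg15 fell by 1.84 ± 0.36 on the log2 scale (SE, n = 9 each, limma adjusted p = 0.0226) and Igtp by 2.14 ± 0.49 (SE, n = 9 each, limma adjusted p = 0.0487). Iigp1 changed by -1.45 ± 0.35 on 96764_at (limma adjusted p = 0.0597) and by -1.11 ± 0.38 on 103963_f_at (limma adjusted p = 0.162). Ifi47 changed by -1.37 ± 0.46 (limma adjusted p = 0.151) and Irgm1 by -0.73 ± 0.40 (limma adjusted p = 0.375). At an unadjusted p under 0.05, 5 of the 6 were lower, with Irgm1 the exception, against 8.34% of all tested probe sets. The median change of the 6 was -1.41, against -0.0264 over all tested probe sets. Among the untested genes, the difference of the log2 means was -0.39 for Usp18, -1.23 for Ifit1, -0.68 for Ifit3 and -2.22 for Gbp2. All 9 Dex livers lay below the Veh median for 3 of the 6 tested probe sets, Isg15, Igtp and 96764_at, which held for 1.9% of all tested probe sets. No member probe set had groups without overlap, which 0.0295% of all tested probe sets had with Dex the lower group.

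Both calls depended on which livers and settings were used. Without Veh 2 and Veh 7 the change was -1.41 for Isg15 (adjusted p = 0.0725) and -1.30 for Igtp (adjusted p = 0.0682), that of Irgm1 was -0.30, that of Iigp1 on 103963_f_at -0.48 and that of Ifit3 -0.03, and that of Usp18 turned to 0.21. Single mice moved the change of Irgm1 to -0.46 (without Dex 4), of Iigp1 on 103963_f_at to -0.67 (without Veh 7) and of Ifit3 to -0.37 (without Veh 2) or -0.43 (without Veh 7). The change of Usp18 ran from -0.66 without Dex 1 to -0.093 without Veh 7. Without Dex 1, Dex 2 and Dex 3 the change was -1.55 for Isg15 (adjusted p = 0.0845) and -1.88 for Igtp (adjusted p = 0.169). With the beta-actin control ratio added to the fit, the change was -1.58 for Isg15 (adjusted p = 0.369) and -1.77 for Igtp (adjusted p = 0.385). Leaving out single mice kept the Isg15 call in 27 of 27 fits and the Igtp call in 6 of 27, with the adjusted p of Igtp at 0.0217 to 0.0972. The Igtp call held without Veh 1, Veh 7, Veh 8, Dex 6, Dex 8 or Dex 9. Iigp1 on 96764_at passed in 4 of 27 such fits (without Veh 1, Dex 6, Dex 8 or Dex 9), with an adjusted p of 0.0267 to 0.112 over the 27.

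Veh livers were then set against those of the Con mice. None of the 6 tested probe sets passed the threshold with limma, where 3.86% of all tested probe sets were called in either direction and 1.19% were called higher. At an unadjusted p under 0.05, 2 of the 6 were higher, Isg15 by 0.82 ± 0.36 on the log2 scale (limma adjusted p = 0.161) and Iigp1 on 96764_at by 0.83 ± 0.35 (limma adjusted p = 0.144), against 5.44% of all tested probe sets. Igtp changed by 0.88 ± 0.49 (limma adjusted p = 0.266), Iigp1 on 103963_f_at by 0.31 ± 0.38 (limma adjusted p = 0.637), Ifi47 by 0.04 ± 0.46 (limma adjusted p = 0.966) and Irgm1 by -0.25 ± 0.40 (limma adjusted p = 0.723). The means of the untested genes differed by 0.73 for Usp18, 0.59 for Ifit1, 0.64 for Ifit3 and 0.83 for Gbp2. The median change of the 6 tested was 0.565, while all tested probe sets had a median of -0.194. Without Veh 2 and Veh 7 the differences were 0.38 for Isg15, 0.30 for Iigp1 on 96764_at, 0.13 for Usp18, 0.05 for Ifit1, 0.04 for Igtp and 0.0048 for Gbp2. Those of Ifit3, the second Iigp1 probe set and Ifi47 turned negative, to -0.0091, -0.32 and -0.40, and that of Irgm1 was -0.68. Without Veh 7 alone the difference was 0.38 for Igtp, 0.49 for Iigp1 on 96764_at and 0.30 for Gbp2.

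The comparison of Dex with Con uses the same Dex mice as that with Veh, so the values stand side by side and are not independent. The mean was lower in Dex for 9 of the 10 member probe sets and for 67.4% of all tested probe sets. Of the 6 tested, 2 were called lower, Isg15 and Ifi47. The share called lower among all tested probe sets was 13.2% here. Isg15 fell by 1.02 ± 0.36 on the log2 scale (SE, n = 9 each, limma adjusted p = 0.0466) and Ifi47 by 1.33 ± 0.46 (SE, n = 9 each, limma adjusted p = 0.0477). Igtp changed by -1.25 ± 0.49 (limma adjusted p = 0.0717), Irgm1 by -0.98 ± 0.40 (limma adjusted p = 0.0857), and Iigp1 by -0.62 ± 0.35 on 96764_at (limma adjusted p = 0.224) and by -0.79 ± 0.38 on 103963_f_at (limma adjusted p = 0.154). Among the untested genes the means differed by 0.34 for Usp18, -0.63 for Ifit1, -0.04 for Ifit3 and -1.40 for Gbp2. All 9 Dex livers lay below the Con median for Igtp and Irgm1, 2 of the 6 tested, as they did for 9.18% of all tested probe sets. Without overlap and with Dex lower were 0.56% of all tested probe sets and none of the members.

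The fit of all 27 livers takes its estimate of the spread from the Veh group too. In a fit of the Dex and Con livers alone, 5 of the 6 probe sets were called lower, against 11.9% of all tested probe sets in that fit. Irgm1 had a lower mean too, by 0.98 on the log2 scale, but was not called. The adjusted p there was 0.0429 for Isg15, 0.00457 for Igtp, 0.0417 for Ifi47, 0.0493 and 0.0161 for the first and second Iigp1 probe sets and 0.0553 for Irgm1. Without Dex 1, Dex 2 and Dex 3, in the fit of all groups, the change was -0.73 for Isg15 (adjusted p = 0.213) and -1.53 for Ifi47 (adjusted p = 0.0689). With single mice left out, the call of Isg15 held in 12 of 27 fits (adjusted p of 0.0173 to 0.0911 over the 27) and that of Ifi47 in 9 of 27 (0.0159 to 0.102). Igtp passed without Veh 7 (adjusted p = 0.0119) or Dex 8 (adjusted p = 0.0463), and Iigp1 on 103963_f_at without Veh 7 (adjusted p = 0.0165).

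**Figure D3:**
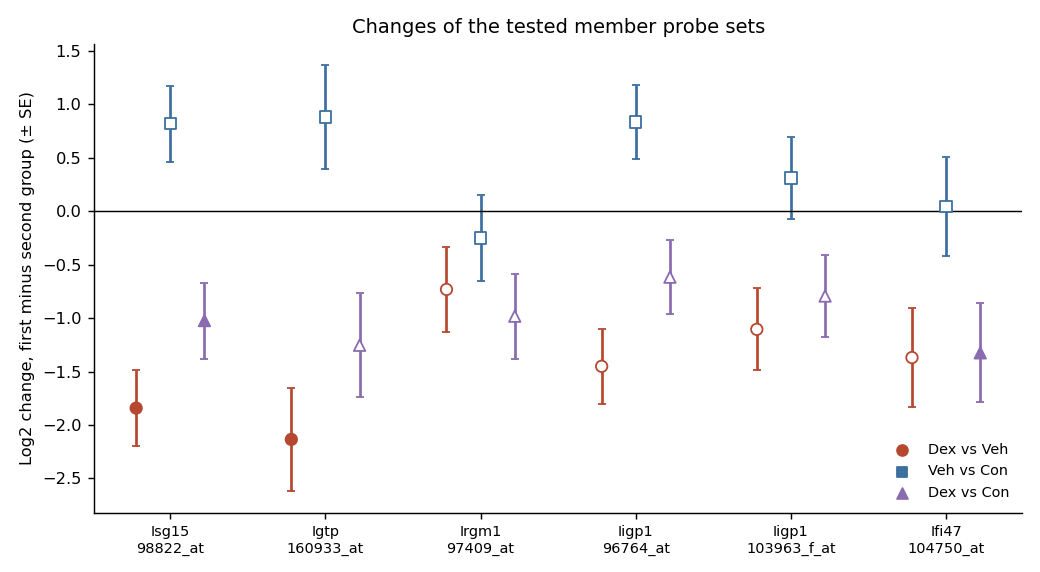
Change of each tested member probe set in the 3 comparisons, with the log2 difference on the vertical axis and bars of 1 standard error, filled where the adjusted p was under 0.05. The filled points are Isg15 and Igtp for Dex against Veh and Isg15 and Ifi47 for Dex against Con, and no point of Veh against Con is filled.

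Veh 2 and Veh 7 stood apart in the member genes. The 2 livers were picked out after these levels were seen, so the counts given here describe them and test nothing. They were the highest pair of all 27 mice in 9 of the 10 member probe sets and in 5 of the 6 tested, where 1.24% of all tested probe sets showed that pair on top. Both livers were above the Veh median in every member probe set, but not in the same proportions. Veh 7 was above Veh 2 in 7 of the 10 member probe sets and in 55.3% of all tested probe sets. The intensity in Veh 2 was 9.94 times the median of the 9 Veh livers for Ifit1, 6.84 times for Ifit3, 5.80 times for Igtp, 4.92 times for Gbp2, 4.44 times for Usp18, 4.38 times for Isg15 and 2.38 to 2.89 times for the probe sets of Irgm1, Iigp1 and Ifi47. In Veh 7 it was 31.5 times that median for Gbp2, 24.6 times for Igtp, 8.66 and 16 times for the first and second Iigp1 probe sets, 8.69 times for Ifi47, 6.44 times for Usp18, 5.08 times for Irgm1, 4.70 times for Ifit3, 3.41 times for Isg15 and 2.66 times for Ifit1. For Gbp2, Ifit1, Ifit3 and Usp18 the Veh median itself was dim, since only 4, 2, 2 and 2 of the 9 Veh livers were above their array's median, so the size of those multiples is uncertain. Between the 2 livers, the intensity in Veh 7 was 0.268 times that in Veh 2 for Ifit1, 0.687 times for Ifit3 and 0.778 times for Isg15. For the GTPases it was 6.40 times that in Veh 2 for Gbp2, 3.56 and 5.88 times for the first and second Iigp1 probe sets, 4.25 times for Igtp, 3.66 times for Ifi47 and 1.76 times for Irgm1. For Usp18 it was 1.45 times that in Veh 2. With 1 array for each liver, these ratios have no replicate and no test. Veh 2 also had the highest 3′ over 5′ log2 ratio of the beta-actin controls among the 27 arrays, 1.92, and the lowest array median, 17.6. In Veh 7 they were 1.14 and 24.4. The part of RNA quality in the levels of Veh 2 and in these ratios was not tested.

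**Figure D4:**
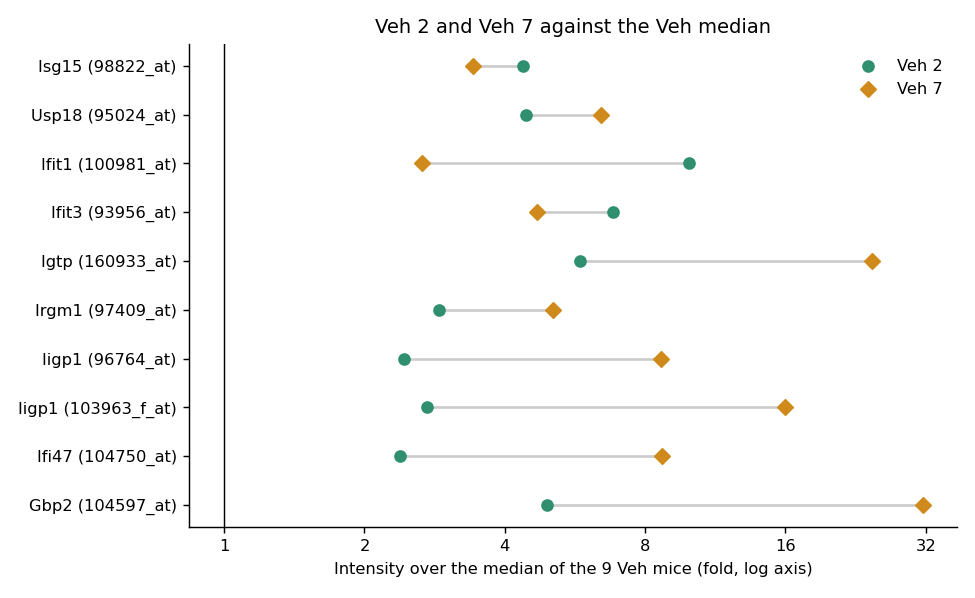
Intensity in Veh 2 and in Veh 7 relative to the median of the 9 Veh livers for each member probe set, on a log axis. Veh 2 lies above Veh 7 for Ifit1, Ifit3 and Isg15, and Veh 7 lies above Veh 2 for Usp18 and for every GTPase probe set.

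Other interferon-responsive genes were high in these livers in part. Both livers were above the Veh median in 13 of 14 measured genes of antigen presentation, 15 of 31 other interferon-stimulated genes, 9 of 16 receptor and signalling genes, 3 of 6 other immunity GTPases and 1 of 12 ligand genes, against 12.1% of all tested probe sets. Except for antigen presentation, these lists include measured genes that did not pass the filter, so their shares and the 12.1% cover unlike sets. Veh 2 was the lowest Veh liver for Mx1, an antiviral GTPase, and for Isg20, Trim21 and Trim30a of the other interferon-stimulated genes. Of these only Trim21 passed the filter, with 28.5 in Veh 2 and a Veh median of 47.2. In Veh 2 Mx1 had 0.7 and Trim30a 1.2, under the floor of 2.6, and Isg20 had 3.9. The order of livers at such intensities says little about these genes. The examples that follow were picked after their values were seen. Cxcl9, a chemokine induced by interferon gamma, had 101 in Veh 2 and 635 in Veh 7, where the Veh median was 8.6. Irgm2, a further regulatory GTPase, had 746 and 2509, with a Veh median of 186, and Gbp7 had 126 and 654, with a Veh median of 39.7. Irf7, a transcription factor that amplifies type I interferon, had 238 in Veh 2 and 270 in Veh 7, with a Veh median of 72.7. The interferon gamma gene itself, Ifng, was near the floor of 2.6 in all groups, with medians of 3.0 in Dex, 2.8 in Veh and 1.6 in Con livers, and had 1.1 in Veh 2 and 3.0 in Veh 7.

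Macrophage markers were high in the same livers as a sum, but not each of them. Both livers were above the Veh median in 11 of the 15 measured markers, against 12.1% of all tested probe sets. Mrc1 was below its Veh median of 38.7 in both, with 24.0 in Veh 2 and 25.9 in Veh 7. Adgre1 was below its median in Veh 2 (26.8 against 30.3), and Lyz2 in Veh 7 (21.8 against 43.4). The dim, untested Marco was also below it in Veh 7 (3.3 against 7.6). The summed intensity of 15 macrophage and Kupffer cell markers was 757.5 to 1913 in Dex, 1077 to 3586 in Veh and 1176 to 2202 in Con livers, and Veh 7 with 3586 and Veh 2 with 3059 were the highest of 27. All 14 tested markers of that list had a lower mean in Dex than in Veh, as did 53.4% of all tested probe sets, and none passed the test. The Veh means include Veh 2 and Veh 7, and the median sums were 1331 in Dex and 1451 in Veh livers. Against Con, where 13.2% of all tested probe sets were called lower, 3 of the 14 fell in Dex: Cd5l, a secreted Kupffer cell protein, by 0.99 on the log2 scale (adjusted p = 0.0172), Mrc1, the mannose receptor, by 0.90 (adjusted p = 0.0162) and Ctss, a lysosomal protease of antigen-presenting cells, by 0.95 (adjusted p = 0.0338). In these bulk livers, fewer cells of a type and less RNA per cell cannot be told apart. The part of macrophage content in the levels of the member genes was not tested.

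The 12 measured T and NK cell markers summed to 91.6 to 233 in Dex, 38.4 to 222 in Veh and 96.4 to 185 in Con livers, with 60.8 in Veh 2 and 179 in Veh 7. The 6 B and plasma cell markers summed to 244 to 616 in Dex, 181 to 686 in Veh and 231 to 470.4 in Con livers, with 181 in Veh 2, the lowest of 27, and 570 in Veh 7. The 9 neutrophil markers summed to 216 to 311 in Dex, 92.9 to 282 in Veh and 126 to 271 in Con livers, with 162 in Veh 2 and 185 in Veh 7. The 4 markers of plasmacytoid dendritic cells summed to 82.2 to 231 in Dex, 92.2 to 1058 in Veh and 115 to 213 in Con livers, where Veh 2 had 1058 and Veh 7 had 464. Of these sums, Ly6d gave 801 in Veh 2 and 175 in Veh 7, and Irf7, which is itself interferon-induced and counted above, gave 238 and 270. Tcf4 had 14.3 and 15.3, below its Veh median of 20.4. No marker of these lists had an intensity of 0 in any array, but many were dim. The filter was passed by 1 of the 12 T and NK cell markers, Cd4, and by 3 of the 9 neutrophil markers. It was passed by 4 of the 6 B and plasma cell markers and 3 of the 4 plasmacytoid dendritic cell markers. Cd8b1 was at or under the floor in 21 arrays and Cd3g in 14. These sums thus include many untested values near the floor. The part of these cells in the levels of the member genes was not tested either.

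Upstream of the member genes, 13 genes for interferon receptors and signalling factors were tested. None passed the test in Dex against Veh, with a median change of -0.303. In Dex against Con, where 13.2% of all tested probe sets were called lower, 2 of the 13 fell, a share near that background: Irf9 by 1.57 on the log2 scale (adjusted p = 0.0137), the DNA-binding part of the complex that reads ISRE elements, and Irf3, which induces type I interferon, by 0.67 (adjusted p = 0.00908). Irf3 also fell by 0.69 on the log2 scale in Veh against Con (adjusted p = 0.0235). Of the 5 tested ligand genes, 1 fell in Dex against Con, Il18, a cytokine that raises interferon gamma production, by 1.38 on the log2 scale (adjusted p = 0.0268), a single call beside the background of 13.2%, and none passed in the other comparisons.

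Among other immunity GTPases, 6 of 18 listed genes were measured and 2 were tested. Irgm2 fell by 1.69 on the log2 scale in Dex against Con (adjusted p = 0.0125), and its change in Dex against Veh was -1.89 (adjusted p = 0.0597). Gbp7 changed by -1.15 in Dex against Con (adjusted p = 0.0598) and by -0.93 in Dex against Veh (adjusted p = 0.285). Of 19 other tested interferon-stimulated genes none passed in Dex against Veh, with a median change of -0.311, and none in Veh against Con. The smallest p in Dex against Veh was that of Rsad2, which codes for the antiviral enzyme viperin, with a change of -1.52 (adjusted p = 0.0977). In Dex against Con 3 of the 19 fell, a share near the 13.2% of all tested probe sets: Ube2l6 and Trim25 with the values above, and Irf5, a transcription factor of myeloid cells, by 1.0 on the log2 scale (adjusted p = 0.01).

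Of 14 tested genes of interferon-induced antigen presentation, 2 fell in Dex against Veh, where 0.221% of all tested probe sets were called lower. Psmb8, a subunit of the immunoproteasome, fell by 1.32 on the log2 scale (adjusted p = 0.044), and Psme1, a subunit of its activator, by 0.83 (adjusted p = 0.0308). Psme1 rose in Veh against Con by 0.73 on the log2 scale (adjusted p = 0.0183). None of the 14 passed in Dex against Con. The median change of the list was -0.645 in Dex against Veh and 0.547 in Veh against Con. Veh 2 and Veh 7 belong to both comparisons, and their summed intensities of this list, 22141 and 35583, were the highest of 27, with a Veh median of 13094. Psmb8 had 769.5 in Veh 2 and 1574 in Veh 7, with a Veh median of 286.

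Across the 27 mice the member genes varied together to different degrees. Over the 45 pairs of member probe sets, Pearson's r on the log2 scale was 0.224 to 0.888, with a median of 0.547, and without Veh 2 and Veh 7 it was -0.186 to 0.705, with a median of 0.343. The highest r was that of the 2 Iigp1 probe sets, followed by Igtp and Gbp2 with 0.842, and the lowest was that of Isg15 and Usp18. These correlations share arrays, groups and array scaling and are given as a description. The mean z-score of the 5 tested genes was highest in Veh 7 with 2.75 and Veh 2 with 1.67. It lay between -1.19 and -0.411 in 8 of 9 Dex livers, with Dex 8 at 0.309, and between -0.0675 and 0.478 in Con livers.

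Outside the set, the genes whose levels followed this mean score most closely, among 5195 genes over 27 mice, were Irgm2 with an r of 0.920, Tapbp with 0.913, Psmb8 with 0.909, Tap1 with 0.899, Gbp7 with 0.882, AW112010 with 0.821, Psmb9 with 0.814 and Ctss with 0.800. Tapbp and Tap1 code for parts of the peptide-loading complex of MHC class I, and Psmb9 for another immunoproteasome subunit. Without Veh 2 and Veh 7 the r of these 8 genes ranged from 0.443 for Psmb9 to 0.829 for Irgm2. The Spearman correlation over 27 mice was 0.819 for Irgm2 and 0.567 for Psmb9. These genes were picked as the most alike of many, and their correlations carry no test.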

How the data were processed

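Liver RNA of 27 mice was measured on Affymetrix arrays, 1 mouse per array. Per the labels' protocols, RNA was extracted with Trizol and RNeasy kits and examined on a Bioanalyzer. The values deposited are linear intensities of probe sets, scaled by the authors to a common trimmed mean (2% trimmed at each end). The sources used here name neither the software that summarised the probes nor the scaling target. Gene symbols came from the platform annotation, which gave 1 symbol for 10855 probe sets, several for 396 and none for 1237. Of the symbols, 10839 matched a RefSeq gene table by gene number and 0 changed.

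Intensities under the 10th percentile of positive values (2.6) were set to it before log2. The 66 control probe sets were left out, and 6784 probe sets passed the filter. A single model of the 3 groups used every array (limma 3.58.1, R 4.3.3; eBayes with a mean trend, 24 residual degrees of freedom), with two-sided tests, Benjamini-Hochberg adjustment over the 6784 probe sets and a threshold of 0.05. Changes are log2 of the first group minus the second, with standard errors of the fit. The code was tested on simulated data. Control ratios were compared with exact permutation tests over all 48620 splits, adjusted over the 6 tests. Precision is limited by the 9 arrays per group and, for the dim probe sets, by the floor.

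The members and gene lists were chosen with earlier results of these data known. Named were every member and the 8 genes most correlated with the members' mean z-score. In the interferon-related and macrophage lists, the genes past the threshold and up to 4 with the smallest p were named. Of 13 tested glucocorticoid-induced genes, 5 were called higher in Dex against Con, and of 9 hepatocyte markers 3, with Tat in both lists. The share over all tested probe sets was 3.26%. In Veh against Con, 1 of 9 hepatocyte markers and 1 of 3 neutrophil markers were called lower, where 2.67% of all tested probe sets were. Levels of Alb, Hnf4a, Fgb, Cxcl9, Ifng, Uba7, Irgm2 and Gbp7 in groups or single livers were added after their values were seen. So were the marker or list genes given for Veh 2 and Veh 7. Where a list gene had several probe sets, that with the highest mean stood for it. Alternatives comprised a stricter filter (18 arrays) or none, floors at the percentiles 1 and 20, quantile normalization, the replicate number as a block, fits of the compared groups alone, the beta-actin ratio as a covariate, array weights and each array left out. The joint omission of Veh 2 and Veh 7, and of Dex 1, Dex 2 and Dex 3, was added after seeing the data.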

Additional observations from a re-analysis of the deposited data

Results flagged for a closer look

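In groups of 9, a liver is listed here when its gap to the nearest other liver was larger, as a share of the group's whole range on the log2 scale, than Dixon's 95% critical value. It was applied to 30 group and probe set combinations and listed 3, and chance flags about 1 in 20 groups. Ifit1 in Veh 2 had a log2 intensity of 6.946, with the next Veh liver at 5.044, a gap of 0.531 of the range. Iigp1 on 103963_f_at in Veh 7 had a log2 intensity of 12.84, with the next Veh liver at 10.29, a gap of 0.588 of the range. Irgm1 in Dex 4 had a log2 intensity of 2.104, with the next Dex liver at 3.926, a gap of 0.584 of the range.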

How the results depend on the processing

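The number of probe sets called in Dex against Veh was 18. It was 7 with no filter, 3 with the replicate block, 1 in a fit of the 2 groups, 1 with the beta-actin covariate, 4 with array weights, 1 without Veh 2 and Veh 7, 1 without Dex 1 to Dex 3, and 4 to 124 with single mice left out (without Dex 5 and without Dex 6). In Veh against Con it was 262, of which 30.9% were higher; 85 with quantile normalization (52.9% higher), 116 with no filter, 656 in a fit of the 2 groups, 33 with the covariate (45.5% higher), 1158 with array weights, 69 without Veh 2 and Veh 7 (47.8% higher), 453 without Dex 1 to Dex 3, and 85 to 586 with single mice left out (without Veh 5 and without Veh 9). In Dex against Con it was 1115, 659 with quantile normalization, 405 without Dex 1 to Dex 3, and 785 to 1488 with single mice left out (without Dex 1 and without Dex 8). Beyond the settings in the report, the Isg15 call in Dex against Veh was lost in the fit of the 2 groups (adjusted p = 0.152) and with array weights (0.0537), and its call in Dex against Con with quantile normalization (0.143), no filter (0.0763) and the covariate (0.0575). The Igtp call was lost with quantile normalization (0.0504), no filter (0.0759), the replicate block (0.0802), the fit of the 2 groups (0.192) and array weights (0.139). The Ifi47 call in Dex against Con was lost with quantile normalization (0.113), no filter (0.0787), the replicate block (0.0653) and the covariate (0.0575). With single mice left out, the Isg15 call in Dex against Con held without Con 2, 3 or 5, Veh 2, 3, 5, 7, 8 or 9, or Dex 5, 8 or 9, and the Ifi47 call without Con 2, Veh 1, 5, 6, 7 or 9, or Dex 3, 6 or 8. Without Veh 7 the change of Igtp was -1.64 in Dex against Veh. In Veh against Con, where no member was called, the direction reversed for Irgm1 with quantile normalization (0.017), for the untested Ifit3 without Veh 2 and Veh 7 (-0.0091), for Iigp1 on 103963_f_at without Veh 7 (-0.12, the lowest of -0.12 to 0.42 with single mice left out) and without Veh 2 and Veh 7 (-0.32), and for Ifi47 with the covariate (-0.092), array weights (-0.29), without Veh 2 and Veh 7 (-0.40) and with single mice left out (-0.27 to 0.18). The untested difference of Ifit3 in Dex against Con also changed sign with single mice left out (-0.27 to 0.18). The causes were not tested. The labels do not say whether replicate numbers pair the mice. Deviations of same-numbered mice correlated by -0.0868 to 0.181 (Dex and Veh), -0.195 to 0.0791 (Veh and Con) and -0.179 to 0.187 (Dex and Con), and 3, 1 and 2 of 9 mice matched their own number best. These correlations cannot show whether same-numbered mice were handled together. With the replicate block Isg15 in Dex against Veh had an adjusted p of 0.0307. At or under the floor were 5.16% to 15.1% of the probe sets of an array, and low intensity limits what can be said of Usp18, Ifit1, Ifit3 and Gbp2.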
